A study of Mus musculus with 12 samples.

Results

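Kinesins are the motor proteins that use ATP to move along microtubules or, in some families, to take microtubules apart at their ends. They are grouped into families with different jobs. Kinesin-1, -2 and -3 carry vesicles, mitochondria and receptors along axons and dendrites, while others, such as kinesin-5 and kinesin-6, build the mitotic spindle and separate dividing cells, and some of these are also known to act in neurons that no longer divide. All genes whose probesets carry a single symbol beginning with Kif were taken, whatever their values, which gave 42 of the 20358 genes measured. By role, 12 of them are known for mitosis, 17 for intracellular transport and 11 for other or less settled functions (cilia, signalling, microtubule depolymerization). The remaining ones are *Kifap3*, the adaptor of the kinesin-2 motor, and *Kif4-ps*, a pseudogene of *Kif4*. *Kifbp*, a kinesin-binding protein, and the kinesins *Stard9* and *Cenpe* carry symbols in the probeset table that do not begin with Kif. They were therefore not counted.

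RNA came from hippocampal neurons of RjOrl:SWISS mouse embryos late in gestation, which were dissociated, plated and grown without experimental treatment for 0, 1 (20 h), 3, 6, 12 or 15 days in vitro (DIV, with day 3 standing for 3 DIV where array values are listed), with 2 arrays at each of the 6 times. All cultures were prepared in the same way, and cytosine arabinoside, a nucleoside that blocks DNA synthesis in dividing cells, was added at 1 µM at 3 DIV. Whether the 3 DIV RNA was taken before or after that addition is not given in the sources used here. The RNA of 0 and 1 DIV was taken before it and that of 6, 12 and 15 DIV after it. Comparisons of these later times with 0 DIV thus hold both time and the drug, whose part was not tested. Replicates 1 and 2 are described as independent, and each holds 1 array per time. Nothing sorts the cells, so an array reports the mixed culture, and in such bulk samples fewer cells of a type and less RNA per cell cannot be told apart. All values are log2 signals, so a difference of 1 means a doubling, and they are compared only within a gene. A gene was called higher or lower where the p-value from limma, adjusted by Benjamini-Hochberg over all genes, was under 0.05. All comparisons with 0 DIV share the same 2 arrays of 0 DIV, and with 2 arrays a time the p-values measure only the spread between these samples.

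The label of the cultures was checked against cell type markers. Of 9 measured neuronal genes, *Snap25*, *Syt1*, *Nefl* and *Nefm* rose by 15 DIV and *Dcx*, a marker of immature neurons, fell. Genes of other cells moved as well. Of 10 astrocyte genes 6 rose, with *Aqp4* the highest change at 3.99, and of 9 oligodendrocyte lineage genes 7 rose, with *Pdgfra* at 4.18. Of 10 microglial genes 7 fell and of 10 endothelial and mural genes 8 fell. Of 9 progenitor genes 4 fell, and of 22 proliferation genes *Cenpf*, *Mcm6* and *Mcm7* fell. Beside these counts, 16.4% of all genes rose and 8.43% fell by 15 DIV. The summed signal of the astrocyte list (log2, replicate 1, then replicate 2, as in all pairs of values given here) was 11.93 and 12.14 on day 0 and 13.85 and 13.34 on day 15, that of the oligodendrocyte lineage 10.07 and 10.00 against 12.64 and 12.44, and that of the neuronal list 14.45 and 14.43 against 14.78 and 14.79. Array signals have no true zero, so none of these markers can be called absent. The part of these other cells in the kinesin values was not tested. Over all genes, which are no replicates of each other, both arrays of a time correlated with an r of 0.944 (12 DIV) to 0.979 (1 DIV).

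Between 0 and 15 DIV, 10 kinesin genes rose and 8 fell. Of all genes tested, 16.4% rose and 8.43% fell, and 24.8% changed in either direction against 42.9% of the kinesin genes. The counts differed by role, a difference that was not itself tested. The lists of roles were drawn up with earlier results of these data known. Of 17 transport kinesins 8 rose and 3 fell, with a median difference of 0.50 over the 17 genes. Of 12 mitotic kinesins 0 rose in limma, 2 fell and the median was -0.35. At an unadjusted p under 0.05 in limma 0 of the 12 were higher as well, beside 22.2% of all genes. The median over all genes was 0.01 and that over all 42 kinesin genes -0.04. The array medians were 0.16 higher at 15 than at 0 DIV, and with these centred the transport and mitotic medians were 0.34 and -0.51. The kinesin calls were then 7 higher and 8 lower, beside 13% and 13.5% of all genes. With quantile normalization of the gene values they were 8 and 8, against 13.4% and 14.1% of all genes. Signal also differs, since only *Kif2b*, *Kif12*, *Kif14*, *Kif20b*, *Kif27* and *Kif4-ps* of the kinesin genes belong to the dimmest 33.3% of genes. Without that dimmest part, 11 kinesin genes were higher (25.9% of all genes kept) and 8 lower (12.9%).

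**Figure D1:**
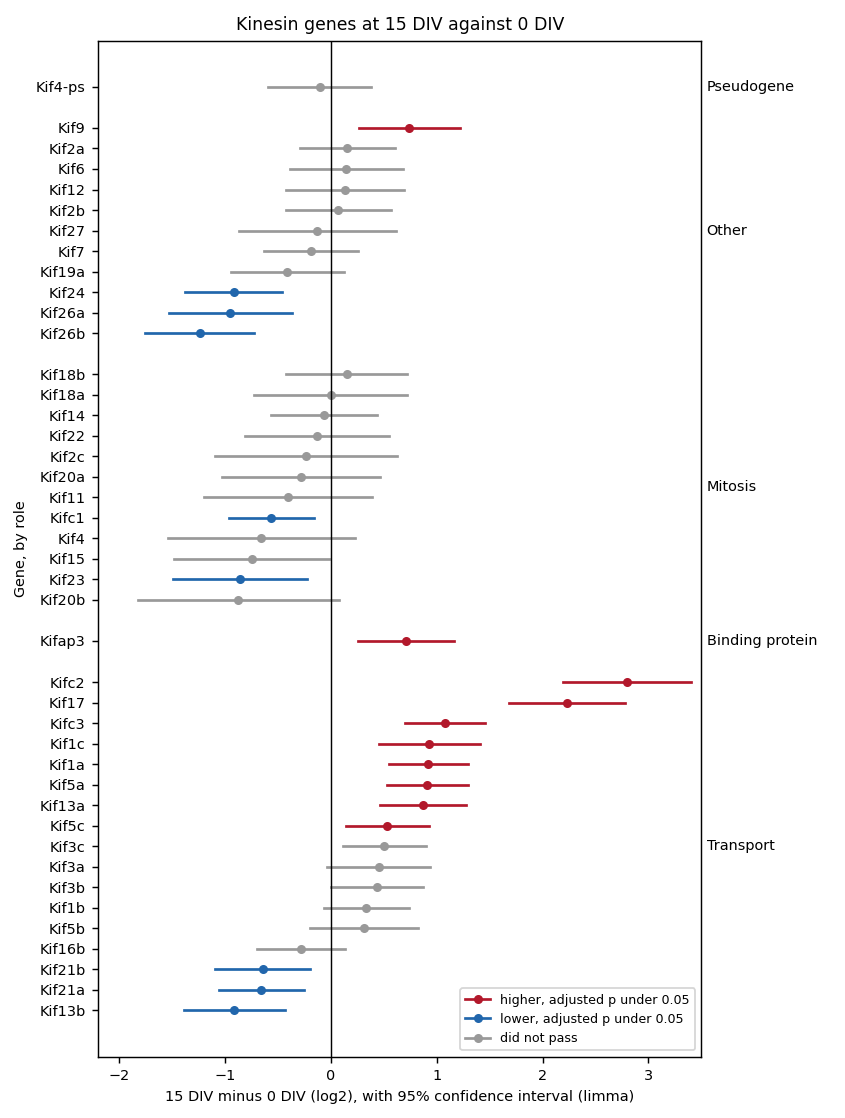
Difference of each of the 42 kinesin genes at 15 DIV against 0 DIV (log2, horizontal axis; points are limma estimates from 2 arrays a time, bars 95% confidence intervals), grouped by role. Red marks the 10 genes that rose and blue the 8 that fell, and *Kifc2* and *Kif17* lie farthest to the right at 2.80 and 2.23.

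The calls accumulated with time. At 1 DIV none of the kinesin genes passed in either direction, where 0.766% of all genes were higher and 0.28% lower. At an unadjusted p under 0.05 in limma, 4 kinesin genes were higher (11% of all genes) and 3 lower (5.48%) at that time. At 3 DIV *Kif18a*, *Kif26b* and *Kifc3* were higher (3 of 42, against 4.7% of all genes) and 0 were lower (1.41% of all genes). At an unadjusted p under 0.05 in limma, 2 kinesin genes were lower then, beside 8.4% of all genes. At 6 DIV 8 were higher (9.88% of all genes) and *Kif13b* and *Kif21a* lower (3.85%). At 12 DIV 9 were higher (15.9%) and 6 lower (8.94%). Without the replicate block all 3 calls of 3 DIV were lost (adjusted p 0.0619 to 0.0797, with 2.18% of all genes higher), as were those of *Kif13a*, *Kif1a*, *Kif3b* and *Kif21a* at 6 DIV and of *Kif21a* and *Kif9* at 12 DIV. Tested for a straight slope over the hours in culture, 8 kinesin genes rose (17.4% of all genes) and 6 fell (12.5%), and an F test over all times passed for 14 genes, or 33.3% (22% of all genes). Scaling moved this split, since under quantile normalization it was 1 higher and 1 lower at 3 DIV (3.29% and 2.05% of all genes), 7 and 5 at 6 DIV (8.14% and 7.06%) and 9 and 7 at 12 DIV (14% and 15.1%). With array medians centred it was 1 and 0 at 3 DIV (3.3% and 1.52%), 7 and 3 at 6 DIV (7.55% and 5.49%) and 8 and 7 at 12 DIV (12.8% and 14.1%).

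**Figure D2:**
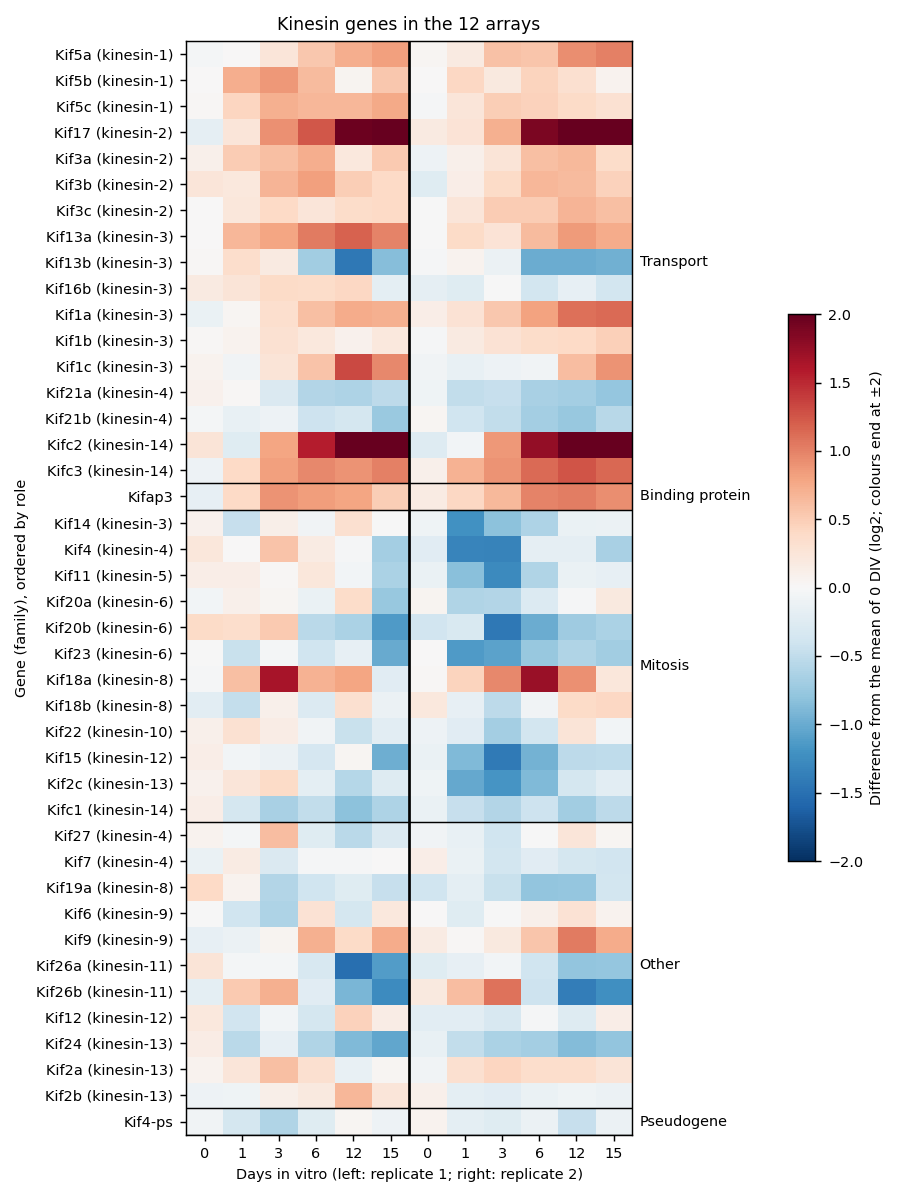
Values of the 42 kinesin genes (rows, by role and family) in the 12 arrays (columns, days in vitro, replicate 1 left and replicate 2 right) as the log2 difference from the gene's mean at 0 DIV, with colours ending at 2 in either direction. The transport rows *Kif17* and *Kifc2* pass that limit at 15 DIV, and most mitotic rows are blue at 1 and 3 DIV on the right side.

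Changes of at least 1 on the log2 scale were fewer. Among the kinesin genes 3 rose by at least 1 at 15 DIV (9.92% of all genes), namely *Kifc2*, *Kif17* and *Kifc3*, and 1 fell by at least 1, *Kif26b* (3.5% of all genes). Counting by position alone, both arrays of 15 DIV lay above both of 0 DIV for 16 kinesin genes (32.7% of all genes) and below them for 15 (30.2%).

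*Kifc2*, a minus-end-directed kinesin-14 found mainly in neurons, had the largest difference of the 42 genes. Its values were 8.08 and 7.57 on day 0, 7.58 and 7.77 on day 1, 8.62 and 8.70 on day 3, 9.40 and 9.59 on day 6, 9.94 and 10.72 on day 12 and 10.31 and 10.94 on day 15. From 3 DIV on every array lay above both 0 DIV arrays, and both replicates were highest at 15 DIV. The rise to 15 DIV was 2.80 (standard error 0.27, adjusted p = 5.63e-05 from limma), a 6.95-fold change. All 18 probesets of the gene were higher by at least 1 in both replicates.

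*Kif17*, the homodimeric kinesin-2 that carries NMDA receptor subunits into dendrites, followed a similar course. It measured 6.26 and 6.63 on day 0, 6.69 and 6.72 on day 1, 7.36 and 7.16 on day 3, 7.69 and 8.33 on day 6, 8.40 and 8.80 on day 12 and 8.85 and 8.50 on day 15. The arrays at 1 DIV already lay above both 0 DIV arrays, though the call came only at 6 DIV. At 15 DIV it had risen by 2.23 (standard error 0.25, adjusted p = 1.16e-04), and 13 of its 15 probesets were higher in both replicates. Only 6 of the 15 were higher by at least 1 in both, and their median difference was 1.06. The size of the *Kif17* rise thus varied with the processing, from 1.26 to 2.53 in 22 other settings. The genes of 2 proteins that link this motor to its cargo also rose. *Apba1* (Mint1), which binds the motor's tail, was higher at 6, 12 and 15 DIV, and *Lin7a* (Mals), of the same scaffold, went from 7.13 and 6.80 on day 0 to 9.86 and 10.07 on day 15.

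*Kifc3*, another minus-end-directed kinesin-14, rose earlier. Its values were 7.38 and 7.59 on day 0, 7.88 and 8.18 on day 1, 8.31 and 8.39 on day 3, 8.45 and 8.62 on day 6, 8.39 and 8.74 on day 12 and 8.49 and 8.64 on day 15. It had reached most of its final level by 3 DIV (difference 0.86, adjusted p = 0.017, and 0.0619 without the replicate block), and by 15 DIV it was higher by 1.08 (standard error 0.17, adjusted p = 0.0011).

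The 3 kinesin-1 heavy chains, which pull vesicles and mitochondria together with the kinesin light chains, differed in their calls. *Kif5a* measured 10.36 and 10.45 on day 0, 10.42 and 10.59 on day 1, 10.65 and 10.99 on day 3, 10.94 and 10.96 on day 6, 11.13 and 11.34 on day 12 and 11.23 and 11.41 on day 15, 0.91 higher at the end than at the start (standard error 0.17, adjusted p = 0.0031). In both replicates 15 DIV was the highest time, and all arrays from 3 DIV on lay above those of 0 DIV. *Kif5c* went from 10.16 and 10.11 on day 0 to 10.84 and 10.62 on day 3 and stood at 10.89 and 10.44 on day 15. Its difference of 0.53 passed narrowly (adjusted p = 0.049), and the call ended in 16 of 22 other settings, among them leaving out any 1 array of 0, 1, 3, 6 or 15 DIV (adjusted p 0.0541 to 0.306). *Kif5b*, the form present in most tissues, was 9.85 in both arrays of 0 DIV and 10.39 and 9.92 on day 15, a difference of 0.31 (adjusted p = 0.37). Its mean was highest at 1 DIV, with 10.57 and 10.26, though replicate 1 was highest at 3 DIV (10.72) and replicate 2 at 6 DIV (10.29). Of 29 probesets of *Kif5a*, 27 were higher at 15 DIV in both replicates, while 1, singled out after its values were seen, went from 9.27 and 9.42 on day 0 to 6.56 and 7.81 on day 15.

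**Figure D3:**
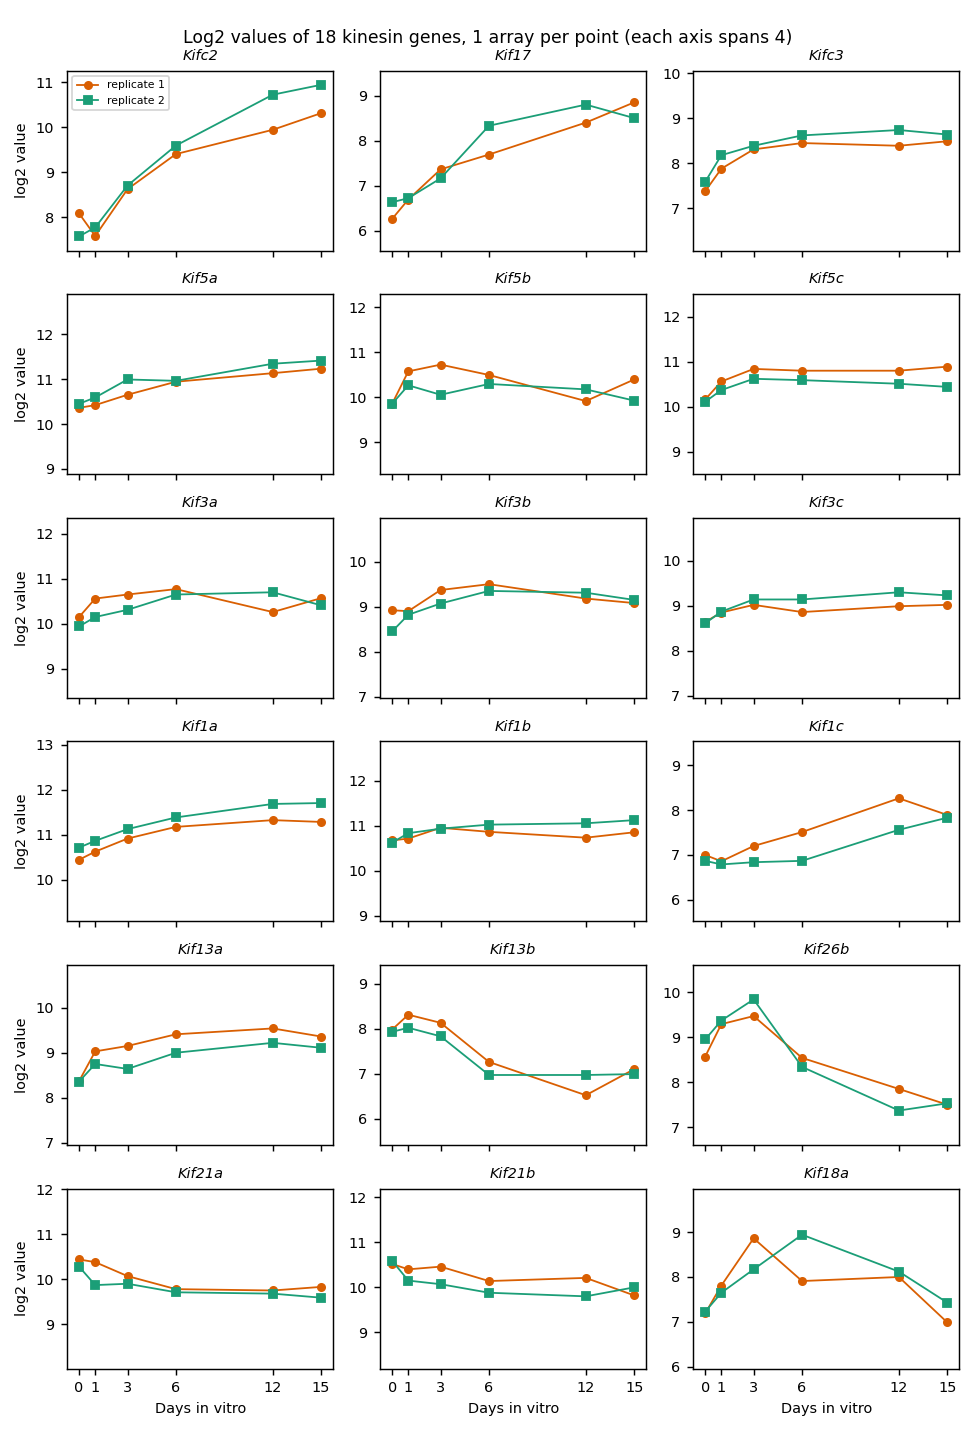
Log2 values (vertical axes, each spanning 4) of 18 kinesin genes against days in vitro, 1 point per array, with circles for replicate 1 and squares for replicate 2. *Kifc2* was highest at 15 DIV in both replicates, *Kif26b* fell below its 0 DIV level after a high at 3 DIV, and *Kif18a* was highest at 3 DIV in replicate 1 and at 6 DIV in replicate 2.

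The heterotrimeric kinesin-2, a motor of axonal transport and of cilia made of 2 motor chains and the adaptor *Kifap3*, had its calls in *Kif3b* and *Kifap3*, and none of its 4 genes passed the comparison of the mean of 3 and 6 DIV with the mean of 0 and 15 DIV. *Kif3b* measured 8.92 and 8.45 on day 0, 9.37 and 9.07 on day 3 and 9.50 and 9.35 on day 6, its only call (0.74 higher, adjusted p = 0.031, and 0.0633 without the replicate block), before 9.08 and 9.15 on day 15 (0.43 higher, adjusted p = 0.14). *Kif3a* went from 10.15 and 9.94 on day 0 to 10.77 and 10.65 on day 6 and 10.57 and 10.41 on day 15 without passing at any time, and *Kif3c* from 8.64 and 8.61 to 9.02 and 9.23 on day 15 (adjusted p = 0.062). In other settings *Kif3c* passed in 5 of 22 (lowest adjusted p = 0.0348) and *Kif3a* in 1 (0.0489 with all probesets). Both arrays of 15 DIV lay above both of 0 DIV for *Kif3a*, *Kif3b* and *Kif3c* alike. *Kifap3* rose by 0.91 at 6 DIV, 0.91 at 12 DIV and 0.71 at 15 DIV (standard error 0.20, adjusted p = 0.027), from 9.09 and 9.42 on day 0 to 9.74 and 10.19. Its 15 DIV call ended without any 1 array of 0 or 15 DIV (adjusted p 0.0515 to 0.198) under both other scalings (0.0578 and 0.0911) and without the replicate block (0.0542).

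Among kinesin-3, *Kif1a*, which carries synaptic vesicle precursors, rose from 10.44 and 10.71 on day 0 to 11.17 and 11.38 on day 6 and 11.28 and 11.7 on day 15 (0.92 higher, standard error 0.17, adjusted p = 0.0026). *Kif13a*, a motor of endosomal vesicles, rose by 0.87 (adjusted p = 0.0056) and passed from 6 DIV on, with the call at 15 DIV lost without replicate 1 at 0 DIV (adjusted p = 0.0689). *Kif1c* went from 7 and 6.87 on day 0 to 7.51 and 6.87 on day 6 and 7.89 and 7.83 on day 15, with its first call at 12 DIV (at 15 DIV 0.93 higher, adjusted p = 0.0095). That call was lost without replicate 1 at 0 DIV (adjusted p = 0.0887) or replicate 2 at 15 DIV (0.0889). *Kif1b*, which encodes isoforms for mitochondria and for synaptic vesicles, differed by only 0.34 (adjusted p = 0.21). Its 56 probesets were spread from -1.38 to 2.77, with 36 higher and 3 lower in both replicates, so the single gene value covers probesets that differed in direction. The probesets farthest apart, chosen after their values were seen, went from 7.55 and 6.27 to 9.60 and 9.75 and from 10.55 and 10.27 to 8.6 and 9.47.

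The transport kinesins that fell were 1 member of kinesin-3 and 2 of kinesin-4. *Kif13b*, which takes part in axon formation, held 7.98 and 7.93 on day 0 and 8.13 and 7.83 on day 3, then dropped to 7.26 and 6.97 on day 6, 6.52 and 6.97 on day 12 and 7.10 and 6.99 on day 15. The 6, 12 and 15 DIV arrays all lay below every array of the earlier times, and the difference at 15 DIV was -0.91 (standard error 0.22, adjusted p = 0.010). Its call at 15 DIV was lost without any 1 array of 0 or 15 DIV (adjusted p 0.0565 to 0.0682). The paralogs *Kif13a* and *Kif13b* moved in opposite directions from 6 DIV on. *Kif21a* went from 10.44 and 10.28 to 9.83 and 9.59 (adjusted p = 0.023), and *Kif21b*, a motor that also restrains microtubule growth, from 10.52 and 10.59 to 9.82 and 10.00 (adjusted p = 0.040). For *Kif21b*, 35 of 38 probesets were lower in both replicates. The *Kif21a* call was lost without any 1 array of 0 or 15 DIV (adjusted p 0.0939 to 0.109), and the *Kif21b* call without any 1 of 7 arrays (adjusted p 0.0635 to 0.329, the highest without replicate 1 at 15 DIV). Neither passed without the replicate block (0.0646 for *Kif21a* and 0.082 for *Kif21b*), and *Kif21b* did not pass without the replicate 2 arrays of 1 and 3 DIV (0.0704).

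Adaptors and cargo proteins of the transport motors were taken as a list of 30 genes, drawn up with earlier results of these data known. The counts are therefore only descriptive. Of the 30 genes, 27 were measured. Of these 13 rose and 0 fell at 15 DIV (17 and 0 at an unadjusted p under 0.05 in limma), with a median difference of 0.71. Of all genes 16.4% rose and 8.43% fell, and 22.2% were higher and 14.2% lower at an unadjusted p under 0.05. The highest changes past the threshold were those of *Lin7a* (3.00), *Clstn3* (2.39), *Hap1* (2.22) and *Ppfia4* (2.13). *Clstn3* is a calsyntenin, a family whose member Clstn1 links kinesin-1 to vesicles, *Hap1* binds huntingtin and motor complexes, and *Ppfia4* is a liprin-alpha, a family that binds *Kif1a*. *Clstn3* went from 8.95 and 9.13 on day 0 to 11.37 and 11.49 on day 15. Of the kinesin-1 light chains *Klc2* rose by 0.97 (adjusted p = 0.0033), and *Klc1* had a difference of 0.47 (adjusted p = 0.080). Of the mitochondrial adaptors *Trak2* rose by 0.74 (adjusted p = 0.028) and *Trak1*, at -0.31, did not pass (adjusted p = 0.24).

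The kinesins of mitosis are shown first by the sequence at their start sites, because many genes of late cell cycle phases share an element there, the cell cycle genes homology region (CHR), through which they are silenced in resting cells. RefSeq promoters (GRCm38.p6, 250 bases before to 50 after the start site) were used for 33 of the 42 genes, among them 11 mitotic kinesins. Those on the chromosome of *Kif20a* and *Kif5b* were left out, for kinesins and for all genes, so the mitotic kinesin *Kif20a* was not searched. No promoter was at hand for *Kif13b*, *Kif19a*, *Kif21b*, *Kif4-ps*, *Kif5a*, *Kifc2* and *Kifc3*. The promoters used were searched on both strands for TTTGAA. It was found for 10 of 11 mitotic, 1 of 11 transport (*Kif1a*) and 2 of 10 other kinesins (*Kif26b* and *Kif27*), and for 20.2% of 27025 genes. Within 50 bases of the start site, a window chosen after the positions were seen, 8 of 11 mitotic kinesins had it and 5.72% of all genes. The 60 bases before the start site of *Kif11* (chr19:37376322-37376381, plus strand), *Kif15* (chr9:122951021-122951080, plus strand) and *Kif22* (chr7:127042421-127042480, minus strand) are given with the element in capitals, read here as TTCAAA because it lies on the other strand, and beside them those of *Kif18a* (chr2:109280678-109280737, plus strand), the mitotic kinesin with no match in its window.
Kif11: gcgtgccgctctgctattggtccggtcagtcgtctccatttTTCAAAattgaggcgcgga
Kif15: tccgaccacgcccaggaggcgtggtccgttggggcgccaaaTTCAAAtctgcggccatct
Kif22: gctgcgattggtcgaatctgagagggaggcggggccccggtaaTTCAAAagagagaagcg
Kif18a: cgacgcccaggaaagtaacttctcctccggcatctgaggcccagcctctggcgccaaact

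The element began 19 bases before the start site for *Kif11* and *Kif15* and 17 before it for *Kif22*, so it sat at nearly the same place in the 3 promoters. In *Kif23*, *Kifc1* and *Kif20b* it lay at or just after the annotated start, which is shown in 30 bases around it for *Kif23* (chr9:61946780-61946809, minus strand), *Kifc1* (chr17:33890615-33890644, minus strand) and *Kif20b* (chr19:34922356-34922385, plus strand), where 2 copies follow each other.
Kif23: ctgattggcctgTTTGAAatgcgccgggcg
Kifc1: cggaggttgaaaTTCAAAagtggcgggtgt
Kif20b: ccgccattgTTTGAATTTGAAaaccgggag

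Other motifs of cell cycle promoters were searched in the same way. CCAAT, searched on both strands, was found for 7 of 11 mitotic, 3 of 11 transport and 5 of 10 other kinesins and for 41.1% of all genes. The variant TTTAAA was found for *Kif14* and *Kif2c* (14.9% of all genes). Of the E2F sites, TTGGCGC was found for *Kif15* and *Kif18a* (2.85%) and TTCCCGC for 0 of 11 mitotic kinesins (5.29%). These matches describe letters and not binding, and a window without a match says nothing about the factor.

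Of the 12 mitotic kinesins 10 did not pass at 15 DIV, and the list was not tested as a group. At 15 DIV *Kif23*, which with *Racgap1* forms the centralspindlin complex of the dividing cell's midzone, and *Kifc1*, a minus-end motor that focuses spindle poles, were lower. *Kif23* measured 8.28 and 8.29 on day 0 and 7.27 and 7.59 on day 15, a difference of -0.86 (standard error 0.29, adjusted p = 0.04995), and 24 of its 25 probesets were lower in both replicates. The call ended without any 1 of 7 arrays (adjusted p 0.0627 to 0.436, the highest without replicate 1 at 15 DIV) and without the replicate block (0.116). *Kifc1* fell from 8.05 and 7.77 to 7.29 and 7.39 (-0.57, adjusted p = 0.044), was also lower at 12 DIV, and lost its 15 DIV call without any 1 of 8 arrays (adjusted p 0.0503 to 0.287) and in 5 other settings (0.0655 to 0.122), among them the fit without the replicate block (0.0696). Its near-identical copy *Kifc5b* may share its probes. *Kif20b* had the lowest difference of the list, -0.88, but did not pass (adjusted p = 0.17, and 0.0354 when only the arrays of 0 and 15 DIV were fitted), and is among the dimmest genes (lowest 33.3% by mean signal).

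*Kif11* (Eg5), the kinesin-5 that slides spindle microtubules apart, did not pass at any time. It measured 8.57 and 8.31 on day 0, 8.57 and 7.60 on day 1, 8.47 and 7.16 on day 3, 8.66 and 7.84 on day 6, 8.39 and 8.31 on day 12 and 7.80 and 8.27 on day 15. Replicate 1 was flat to 12 DIV and lower at 15 DIV, whereas replicate 2 was low from 1 to 6 DIV and near its starting value at 12 and 15 DIV. The difference at 15 DIV was -0.41 (standard error 0.36, interval -1.20 to 0.38, adjusted p = 0.45), and it was 0.17 without replicate 1 at 15 DIV. *Nek7*, a kinase that acts on this motor in mitosis, rose, from 7.78 and 7.57 on day 0 to 8.61 and 7.84 on day 3, 9.02 and 8.69 on day 6 and 9.65 and 9.66 on day 15 (1.98 higher, standard error 0.22, adjusted p = 1.30e-04). It was the only call among 15 regulators and partners of mitotic kinesins, whose median was -0.11 (16.4% of all genes rose and 8.43% fell). *Nek6* and *Nek9*, the other kinases of that pathway, had differences of 0.20 and -0.42 and did not pass.

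The gap between the replicates of *Kif11* was present in most mitotic kinesins. At 3 DIV 11 of 12 were higher in replicate 1 than in replicate 2 by at least 0.5, against 18.3% of all genes, and at 1 DIV 9 of 12, against 9.59%. At 15 DIV the order was reversed, with none higher in replicate 1 by that margin and 3 higher in replicate 2 (8.91% of all genes). *Kif4*, a chromokinesin, measured 7.06 and 6.61 on day 0, 6.84 and 5.52 on day 1 and 7.40 and 5.5 on day 3. *Kif2c*, a depolymerase of the kinetochore, measured 7.49 and 7.33, then 7.65 and 6.38, then 7.79 and 6.23. *Kif15*, which can stand in for *Kif11* in the spindle, measured 7.31 and 7.03, then 7.12 and 6.29, then 7.05 and 5.75. For each of these genes the replicate 2 array of 3 DIV held the lowest of the 12 values. The *Kif15* difference at 15 DIV, -0.75 (adjusted p = 0.13), passed in 2 of 22 other settings (lowest adjusted p = 0.017, without replicate 2 at 15 DIV). The member that differed most between the replicates at 15 DIV was *Kif20a*, a motor of the midzone, with 6.47 and 7.41.

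**Figure D4:**
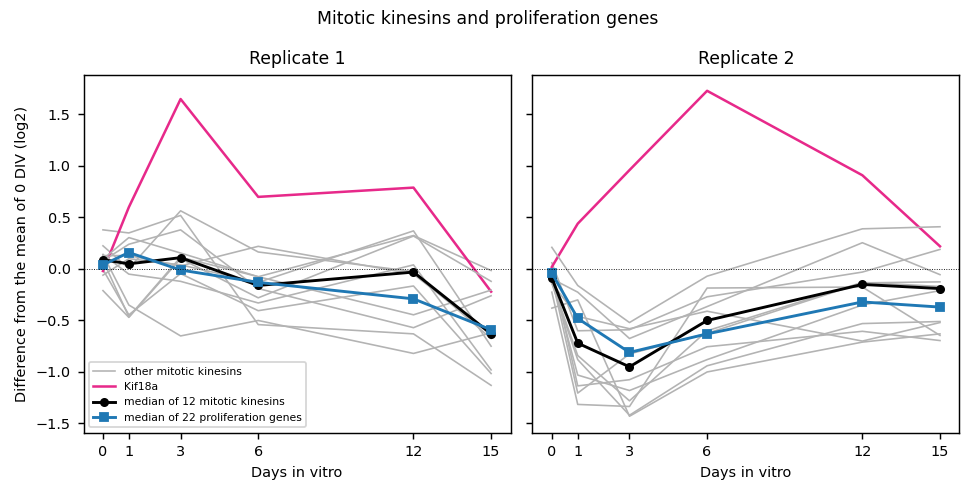
Log2 difference from the mean of 0 DIV (vertical axis) against days in vitro for the 12 mitotic kinesins in replicate 1 (left) and replicate 2 (right), with their median (circles), the median of 22 proliferation genes (squares) and *Kif18a* in pink. In replicate 2 the kinesin median falls to -0.95 at 3 DIV, while in replicate 1 it is 0.11 there.

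Set against the mean of 0 DIV, the median of the 12 mitotic kinesins was 0.05 in replicate 1 and -0.72 in replicate 2 at 1 DIV, and 0.11 and -0.95 at 3 DIV. Within replicate 2, 10 of 12 were lower at 3 DIV than at 0 DIV by at least 0.5 (8.94% of all genes), and within replicate 1, 1 of 12 was (16% of all genes). Some other lists differed between the replicates in the same direction at 3 DIV. The 22 proliferation genes had medians of -0.01 and -0.81, the 15 partners of mitotic kinesins 0.45 and -0.61, the 9 progenitor genes 0.18 and -1 and the 10 astrocyte genes 0.51 and -0.27. The summed signal of the 22 proliferation genes (log2) was 13.59 and 13.52 on day 0 and 13.55 and 12.96 on day 3, and that of the 10 astrocyte genes 11.93 and 12.14 on day 0 and 12.50 and 11.53 on day 3. The 17 transport kinesins had 0.39 and 0.28, the 9 oligodendrocyte lineage genes 0.31 and -0.20 and the 10 microglial genes -0.31 and -0.61. Replicate 2 had the higher median for the 9 neuronal genes (0.13 and 0.22) and the 10 endothelial and mural genes (-1.24 and -0.96). It was also higher for 3 erythroid genes (-1.64 and -1.31) and the 27 transport partners (0.31 and 0.43). Replicate, and all that differed between the 2 preparations, moves with these gaps, and its part was not tested. The labels call replicate 1 B and replicate 2 A, but the title of the replicate 2 array of 3 DIV alone carries a B after its number, and what that letter stands for is not given in the sources used here. With both replicate 2 arrays of 1 and 3 DIV left out, a choice made after seeing the data, 8 kinesin genes were higher and 6 lower at 15 DIV, beside 14.7% and 7.03% of all genes in that setting.

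*Kif18a*, the kinesin-8 that limits chromosome movements at the metaphase plate, differed from the other mitotic members in its course. It measured 7.19 and 7.23 on day 0, 7.81 and 7.65 on day 1, 8.86 and 8.17 on day 3, 7.91 and 8.94 on day 6, 8.00 and 8.12 on day 12 and 6.99 and 7.43 on day 15. All arrays from 1 to 12 DIV lay above those of 0 and 15 DIV, and replicate 2, where the other members were low, was also raised. The difference from 0 DIV was 1.31 at 3 DIV (adjusted p = 0.042, and 0.067 without the replicate block) and 1.21 at 6 DIV (adjusted p = 0.032) and -0.004 at 15 DIV. The mean of 3 and 6 DIV exceeded the mean of 0 and 15 DIV by 1.26 (standard error 0.23, adjusted p = 0.030). That comparison passed for 2 of 42 kinesin genes in the higher direction (0.948% of all genes) and for 0 in the lower direction (0.658%). In the lower direction 0 had an unadjusted p under 0.05 in limma, beside 6.19% of all genes. The *Kif18a* call was lost without any 1 of 6 arrays and without the replicate block (adjusted p = 0.056).

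The second gene of that kind was *Kif26b*, a kinesin-11 that binds microtubules and is known for cell adhesion and signalling in development rather than for transport. It measured 8.57 and 8.95 on day 0, 9.29 and 9.37 on day 1, 9.47 and 9.84 on day 3, 8.54 and 8.34 on day 6, 7.85 and 7.37 on day 12 and 7.5 and 7.53 on day 15. The arrays of 1 and 3 DIV lay above all others and those of 12 and 15 DIV below all others. It was 0.89 higher at 3 DIV (adjusted p = 0.048, and 0.0797 without the replicate block) and fell by 1.24 at 15 DIV (standard error 0.23, adjusted p = 0.0028), and 15 of 18 probesets were lower at 15 DIV in both replicates. Its middle-stage difference of 0.91 (adjusted p = 0.028) was lost without any 1 of 10 arrays (adjusted p 0.0521 to 0.125) and in 3 other settings (0.0501 to 0.0952), while the fall at 15 DIV passed in all 22 other settings. Its paralog *Kif26a*, which restrains growth factor signalling in enteric neurons of the mouse, fell from 9.46 and 8.96 on day 0 to 8.89 and 8.81 on day 6, 7.70 and 8.42 on day 12 and 8.09 and 8.43 on day 15 (-0.95, adjusted p = 0.022). All 9 of its probesets were lower in both replicates, and the call was lost without replicate 1 at 0 DIV (adjusted p = 0.221) and without either array of 15 DIV (0.184 and 0.05), and with all probesets (0.0582).

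Of the other members, *Kif24*, a kinesin-13 that keeps primary cilia from forming, went from 7.69 and 7.38 to 6.5 and 6.74 (-0.92, adjusted p = 0.0078, lost without replicate 1 at 0 DIV at 0.0804 and without replicate 1 at 15 DIV at 0.103). *Kif9*, a kinesin-9 of motile cilia and sperm, rose from 6.76 and 7.10 to 7.67 in both arrays (0.74, adjusted p = 0.028), and lost the call without any 1 array of 0 or 15 DIV (adjusted p 0.0687 to 0.20), without the replicate block (0.059), with array medians centred (0.0627) and without the replicate 2 arrays of 1 and 3 DIV (0.0611). *Kif2a*, a depolymerase that restrains axon branches in mouse neurons, had its highest mean at 3 DIV, with 10.15 and 9.99 against 9.62 and 9.49 on day 0, and differed by 0.16 at 15 DIV (adjusted p = 0.63). *Kif7*, a regulator of Hedgehog signalling in the primary cilium, ranged over 0.34 between the means of the 6 times. *Kif14*, *Kif18b* and *Kif22* of the mitotic list, *Kif16b* of the transport list, and *Kif2b*, *Kif6*, *Kif12*, *Kif19a*, *Kif27* and *Kif4-ps* did not pass at any time, and *Kif14*, *Kif2b*, *Kif12*, *Kif27* and *Kif4-ps* belong to the dimmest 33.3% of genes.

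Of the 18 calls at 15 DIV, those of *Kif17*, *Kif1a*, *Kif26b*, *Kif5a*, *Kifc2* and *Kifc3* passed with the same sign in all 22 other settings. The same held for *Lin7a*, *Clstn3*, *Hap1*, *Ppfia4* and *Nek7*, the only partners for which those settings were run. The partner calls with smaller changes were not put through them.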

How the data were processed

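Total RNA (25 ng a sample, amplified) of 12 cultures was hybridised to Affymetrix Mouse Gene ST arrays. The deposited values are log2 signals of 241576 probesets, background-corrected, quantile-normalised and summarised by the authors with RMA, and no depth exists for arrays, whose number limits the precision. Probesets with 1 gene symbol (212138) were used, and 4672 with several and 24766 with none were left out, among them 5 that kinesin genes share with a neighbour or relative. As in the methods of the study, each gene's most variable probesets (50% of them, by interquartile range) were combined by median polish, which gave 20358 genes, 2257 of them on 1 probeset. Probes were not checked for matches to near-identical copies such as *Kifc5b* or *Kif4-ps*.

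Times were fitted in limma 3.58.1 (R 4.3.3) as a factor with replicate as a block, adjusted by Benjamini-Hochberg over all genes at 0.05, and the script was tested on simulated data. The block rests on the methods' batch term, and in all 15 pairs of times the deviations of same-numbered arrays correlated across genes (r 0.11 to 0.46, median 0.30). In the labels, replicates 1 and 2 are also called B and A. Alternatives left out the block, 1 array at a time, or the dimmest 33.3% of genes, or changed the probesets, their summary, the scaling, the variance model or the arrays fitted. Leaving out the arrays of replicate 2 at 1 and 3 DIV, and those of 12 DIV, was chosen after seeing the data. Members and lists were chosen with earlier results of these data known. Array values were to be given for changes of at least 1, middle-stage genes, *Kif11*, kinesin-1 and -2 and the members whose replicates differ most, and for partners the 4 with the largest changes, counterexamples and *Nek7*; further genes were named after their values were seen. Promoters were those of RefSeq on GRCm38.p6, and figures were drawn with matplotlib 3.10.9.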

Additional observations from a re-analysis of the deposited data

How the results depend on the processing

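Of the 18 kinesin calls at 15 DIV, 6 passed with the same sign in all 22 alternatives. Counts follow with, in brackets, the share of all genes called in the same setting, except for the ranges with 1 array left out. Without the replicate block, 0 kinesin genes were higher at 3 DIV (2.18%), 5 higher (6.14%) and 1 lower (2.17%) at 6 DIV, 4 lower at 15 DIV (5.48%), 0 higher at the middle stage (0.0688%) and 9 passed the F test (14.7%). At 3 DIV, 6 were higher with the mean of the selected probesets (4.83%), 6 with an intensity trend and robust variances (7.35%), and 6 without the dimmest 33.3% of genes (10.4%), where 1 was lower (2.54%). With quantile normalization, 1 was higher (3.29%) and 1 lower (2.05%) at 3 DIV, 5 lower at 6 DIV (7.06%) and 1 higher at the middle stage (0.894%), and with centred medians 1 was higher at 3 DIV (3.3%). Without the arrays of replicate 2 at 1 and 3 DIV, 1 was higher at 3 DIV (2.92%), 0 lower at 6 DIV (2.85%), 1 higher at the middle stage (0.162%) and 8 passed the F test (14.8%). The causes were not tested. The ranges that follow, with 1 array left out at a time, carry no share of all genes. They therefore cannot show whether kinesin calls varied more or less than those of other genes. Leaving out 1 array at a time gave 0 to 4 higher at 3 DIV, 3 to 11 higher and 0 to 2 lower at 6 DIV, 6 to 10 and 2 to 6 at 12 DIV, 5 to 11 and 1 to 8 at 15 DIV, 0 to 2 higher at the middle stage, 8 to 10 rising and 5 to 7 falling slopes, and 9 to 14 F tests. Differences at 15 DIV that had not passed turned their sign for *Kif18b* (-0.059) and *Kif22* (0.017) with all probesets, *Kif12* (-0.043) with the mean, *Kif2a* (-0.087) with quantile normalization, and *Kif12* (-0.031), *Kif18b* (-0.016), *Kif2a* (-0.007), *Kif2b* (-0.093) and *Kif6* (-0.017) with centred medians. With 1 array left out they ranged from -0.989 to 0.173 for *Kif11*, -0.024 to 0.289 for *Kif12*, -0.302 to 0.166 for *Kif14*, -0.189 to 0.182 for *Kif18a*, -0.077 to 0.37 for *Kif18b*, -0.93 to 0.362 for *Kif20a*, -0.316 to 0.054 for *Kif22*, -0.316 to 0.056 for *Kif27*, -0.217 to 0.358 for *Kif2b*, -0.612 to 0.137 for *Kif2c*, -0.051 to 0.342 for *Kif6* and -0.449 to 0.07 for *Kif7*.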
